A study of Mus musculus with 4 samples.

Results

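Pyruvate carboxylase, genes of the citric acid cycle and the cytosolic malate dehydrogenase (Mdh1) were followed in the aorta of mice given rosiglitazone. The drug is insulin-sensitising and an agonist of the nuclear receptor PPARγ. The genes are Pcx, Cs, Idh3a, Idh3g, Ogdh, Suclg1, Fh1, Mdh2 and Mdh1. They are represented by every probe set whose single symbol in the platform's probe table is one of these names, 12 probe sets out of 12422 that are not controls, for 9 of 8251 genes named in this way. The 4 control probe sets of the array that are also directed at mouse pyruvate carboxylase were set beside them. The genes were chosen from the drug contrast of these same arrays, that is, with their signal per array and their difference between rosiglitazone and vehicle already known, so their values are a description and no p is given for any single one of them.

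The study measured RNA in pooled aortas on Affymetrix MG-U74Av2 arrays, which read each transcript with a set of short oligonucleotide probes and give 1 intensity per probe set. There were 2 rosiglitazone arrays (replicates 1 and 2), from adult male C57BL/6J mice given 25 mg/kg per day for 21 days, and 2 vehicle arrays (replicates 3 and 4), from adult male mice of that strain given vehicle for 21 days. Each sample is a pool of animals, and neither the size of a pool nor whether replicates are separate pools is given in the sources used here. Array spread may therefore be technical, and the small number of arrays limits the precision. Median intensity ran from 590 to 620 on the rosiglitazone arrays and from 634 to 647 on the vehicle arrays.

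The citric acid cycle runs in the mitochondrial matrix. Citrate synthase joins acetyl groups to oxaloacetate, a chain of dehydrogenases oxidises the product and passes electrons to the respiratory chain, and malate dehydrogenase regenerates oxaloacetate. Pyruvate carboxylase, a biotin enzyme of the matrix, refills the cycle by making oxaloacetate straight from pyruvate. In adipocytes this reaction also feeds fatty acid synthesis and glycerol production, and in mouse fat the Pcx gene is a known target of PPARγ. Cycle enzymes are abundant wherever mitochondria are dense, as in brown fat, which surrounds the thoracic aorta of the mouse, and in heart muscle.

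Most of the genes had more signal with rosiglitazone, by modest amounts, and Ogdh by the most. Intensities under 148 were raised to that floor, and probe sets with a mean log2 intensity of at least that of 414 entered a fit with limma, a linear model that shares its estimate of spread across probe sets. Of the 12 probe sets 11 were bright enough, and of these 9 were higher on both rosiglitazone arrays than on both vehicle arrays, 1 was lower on both and 1 overlapped. Over all 7134 probe sets fitted, 19% were higher without overlap between the groups and 21.8% were lower without overlap. The median log2 fold change (rosiglitazone minus vehicle) was 0.42 over the 11 and -0.02 over all probe sets fitted. Ogdh was 2.42-fold higher, whereas the other 8 higher probe sets lay between 1.11-fold and 1.52-fold. None of the 11 (0) passed an adjusted p of 0.05 in limma, where 0.364% of all probe sets fitted did. At an unadjusted p under 0.05 there were 2 of the 11 and 10.9% of all probe sets fitted. Because these genes were chosen with this contrast in view, nothing is read from these counts.

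**Figure D1:**
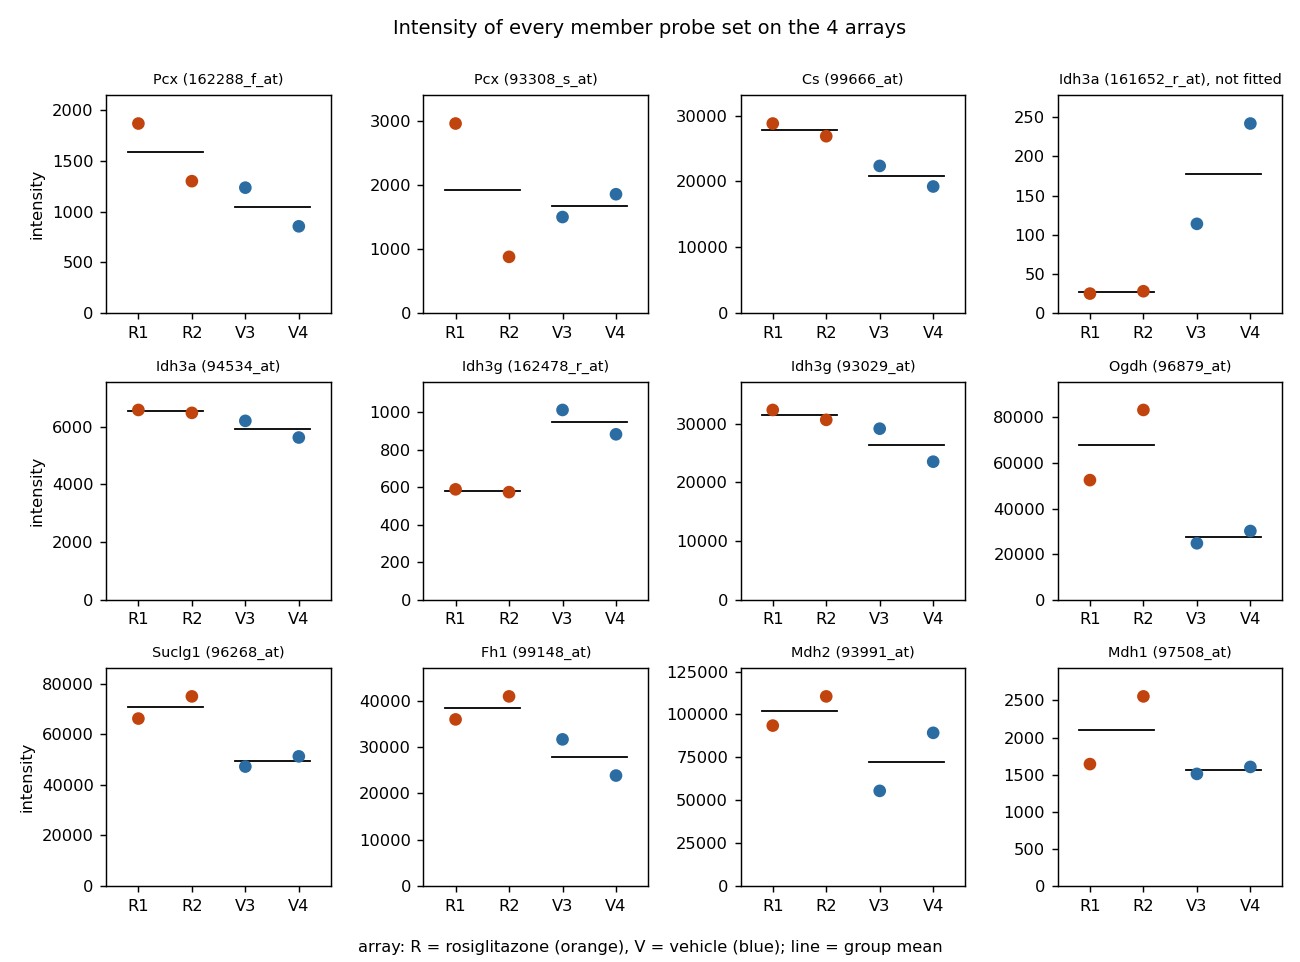
Deposited intensity (linear axes from 0) of the 12 probe sets on rosiglitazone arrays 1 and 2 (R1, R2, orange) and vehicle arrays 3 and 4 (V3, V4, blue), with a line at each group's arithmetic mean. Ogdh stands at 52486 and 83298 with rosiglitazone, above 24738 and 30140 with vehicle, and the second probe sets of Idh3a and Idh3g run the other way from the first.

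Intensities cannot be compared between probe sets as transcript levels, since each has its own probes, so the levels below are compared between arrays only. Sums over marker genes, given further below, are likewise compared between arrays only. The probe sets with the most signal weigh most in them. The entry step is considered first. Cs, citrate synthase, had intensities of 28792 and 26866 after rosiglitazone, against 22358 and 19231 after vehicle. Both treated arrays were above both controls, and the probe set was 1.34-fold higher (log2 fold change 0.42, standard error 0.20). Its mean log2 intensity was 14.76 ± 0.07 after rosiglitazone, against 14.34 ± 0.15 after vehicle (SD, n = 2 each), a gap wider than the spread in either group.

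Isocitrate dehydrogenase, which releases the first carbon dioxide of the cycle and is a regulated NAD-dependent enzyme, was read through its catalytic alpha subunit and its regulatory gamma subunit. Idh3a had 6584 and 6483 after rosiglitazone, against 6205 and 5627 after vehicle on its brighter probe set (94534_at). The groups did not overlap, but the difference of 0.14 (log2) was smaller than its standard error of 0.22, and with 1 array left out it ran from 0.07 to 0.22. Idh3g had 32338 and 30651 after rosiglitazone, against 29147 and 23519 after vehicle on its brighter probe set (93029_at), a log2 fold change of 0.27 (standard error 0.20) that ran from 0.11 to 0.42 with 1 array left out.

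The dim probe sets of these subunits did not follow the bright ones. Idh3g on 162478_r_at had 589 and 574 after rosiglitazone, against 1013 and 883 after vehicle, so here the treated arrays were the lower ones and the log2 fold change was -0.70 (standard error 0.49). Idh3a on 161652_r_at had 25 and 28 after rosiglitazone, against 114 and 242 after vehicle. This last probe set lay under the floor of 148 on both rosiglitazone arrays and 1 vehicle array and did not enter the fit. In the array maker's naming the suffix _r marks probe sets for which the usual rules of probe choice were relaxed. Which of the disagreeing probe sets follows its transcript was not tested.

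Ogdh, the oxoglutarate-binding subunit of the dehydrogenase complex that makes succinyl-CoA and one of the regulated steps of the cycle, had intensities of 52486 and 83298 after rosiglitazone, against 24738 and 30140 after vehicle. The lowest treated array was well above the highest control. Its log2 fold change was 1.28 (standard error 0.26), larger than that of 97.8% of all probe sets fitted, and its mean log2 intensity was 16.01 ± 0.47 after rosiglitazone, against 14.74 ± 0.20 after vehicle (SD, n = 2 each). Its size depended on the treated arrays, since it was 1.61 when rosiglitazone replicate 1 was left out and 0.94 when replicate 2 was. Only 1 probe set of the array carries this gene's name, so no second reading was at hand.

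Sequence upstream of Ogdh and Mdh2 is shown because Ogdh differed by the most between the groups and the Mdh2 window holds an uncommon repeat. RefSeq's table (build GRCm38.p6) held promoter windows for 8 of the 9 genes, 14 windows in all, with 6 for Ogdh and 2 for Pcx. The 250 bases before each start were searched on both strands for AGGTCA (the element that PPAR and many other nuclear receptors bind, alone or in pairs), AGGTCA repeated on the same strand with 1 base between (the paired site of PPAR with its partner RXR, which contains the single element), TGACGTCA (the cyclic AMP response element), GCGCATGCG (the core of the NRF1 site), CTCGCGAG, a palindrome, and CCAAT. The motifs were chosen after the windows had been read, and a match is a description only. Only exact matches were counted, so sites further away or with other bases were missed, and nothing is read from an absent match. Capitals mark TGACGTCA in the window at Ogdh's first start, chr11:6291347-6291596 on the plus strand, GCGCATGCG in that at a start further downstream, chr11:6292329-6292578 on the plus strand, and CTCGCGAG in that of Mdh2, chr5:135778399-135778648 on the plus strand.
Ogdh, first start: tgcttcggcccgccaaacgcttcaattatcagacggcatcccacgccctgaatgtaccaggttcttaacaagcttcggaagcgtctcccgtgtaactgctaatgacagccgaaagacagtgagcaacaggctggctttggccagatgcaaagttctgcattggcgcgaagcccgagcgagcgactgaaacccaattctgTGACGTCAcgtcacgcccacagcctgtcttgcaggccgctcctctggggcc
Ogdh, downstream start: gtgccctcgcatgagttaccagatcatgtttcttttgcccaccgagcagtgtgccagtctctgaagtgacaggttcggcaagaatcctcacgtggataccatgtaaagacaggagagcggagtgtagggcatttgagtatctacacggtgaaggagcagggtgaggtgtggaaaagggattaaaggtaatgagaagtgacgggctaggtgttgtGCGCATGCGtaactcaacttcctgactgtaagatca
Mdh2: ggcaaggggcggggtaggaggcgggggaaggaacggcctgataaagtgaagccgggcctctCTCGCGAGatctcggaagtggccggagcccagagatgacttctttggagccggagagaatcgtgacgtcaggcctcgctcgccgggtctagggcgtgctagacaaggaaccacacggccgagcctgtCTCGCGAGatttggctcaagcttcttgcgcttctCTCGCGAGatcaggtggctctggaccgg

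The Mdh2 window held CTCGCGAG 3 times, which 2 of all 32851 windows did, this one included, and 0.761% of all windows held it at least once. TGACGTCA was present at Ogdh and Mdh2 and in 1.55% of all windows. GCGCATGCG was present at Ogdh alone among the 8 genes and in 1.45% of all windows. The single element AGGTCA was found upstream of 1 of the 8 genes, Fh1, and in 14% of all windows, and the paired site upstream of 0 of the 8 and in 0.0335% of all windows. CCAAT was found for 5 of the 8 genes and in 33.8% of all windows.

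After succinyl-CoA, the next members were all higher on both rosiglitazone arrays. Suclg1, the alpha subunit of succinyl-CoA ligase, which makes a nucleoside triphosphate directly in the cycle, had 66254 and 75026 after rosiglitazone, against 47264 and 51302 after vehicle. Its log2 fold change was 0.52 (standard error 0.20), and it moved little with any array left out, from 0.43 to 0.61. Fh1, fumarate hydratase, had 35941 and 40905 after rosiglitazone, against 31636 and 23829 after vehicle, a log2 fold change of 0.48 (standard error 0.22). With 1 array left out it ran from 0.28 to 0.69.

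Mdh2 and Mdh1 encode the mitochondrial and the cytosolic malate dehydrogenase, which work on opposite sides of the inner membrane in the malate-aspartate shuttle. Mdh2 had 93522 and 110544 after rosiglitazone, against 55481 and 89308 after vehicle. The groups were barely apart, because vehicle replicate 4 lay close under the lower treated array, and the log2 fold change of 0.53 (standard error 0.26) became 0.87 without vehicle replicate 4 and 0.19 without vehicle replicate 3. Mdh1 had 1643 and 2555 after rosiglitazone, against 1511 and 1605 after vehicle. Here rosiglitazone replicate 2 stood above the 3 other arrays, which were close together, and the log2 fold change of 0.40 (standard error 0.34) was 0.08 without rosiglitazone replicate 2. Across the 11 probe sets fitted, rosiglitazone replicate 2 was the brighter treated array on 5 and replicate 1 on 6, and the vehicle arrays divided 6 for replicate 3 and 5 for replicate 4.

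**Figure D2:**
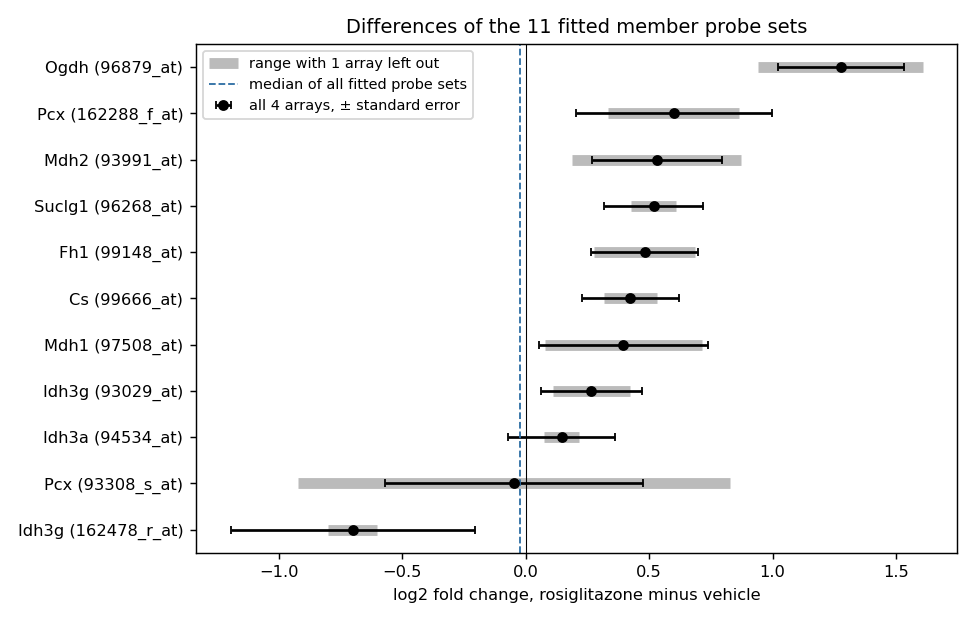
Log2 fold change (rosiglitazone minus vehicle) of the 11 fitted probe sets, with points and bars for the fit over all 4 arrays ± standard error and grey bands for the range with 1 array left out. The dashed line is the median of all fitted probe sets (-0.02), and the band of Pcx on 93308_s_at, from -0.92 to 0.83, spans 0.

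Pyruvate carboxylase gave different answers on different probe sets. On 162288_f_at, Pcx had 1869 and 1301 after rosiglitazone, against 1237 and 856 after vehicle. Both treated arrays were higher, with a log2 fold change of 0.60 (standard error 0.40), although replicate 2 was only slightly above the higher control. Leaving out 1 array moved this value between 0.33 and 0.87. On 93308_s_at, Pcx had 2959 and 879 after rosiglitazone, against 1500 and 1856 after vehicle, so the treated arrays lay on either side of the controls. The log2 fold change on 93308_s_at was -0.05 (standard error 0.52). With rosiglitazone replicate 2 left out it was 0.83, and with replicate 1 left out it was -0.92. The SD of this probe set over the rosiglitazone arrays was 1.24 on the log2 scale, against 0.22 over the vehicle arrays. In the array maker's naming the suffixes _f and _s mark probe sets that can also match related sequences.

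The control probe sets for pyruvate carboxylase, which read its 3′ end, 2 middle stretches and its 5′ end, added 4 further readings. The 3′ control had 13006 and 6485 after rosiglitazone, against 5207 and 4753 after vehicle, 1.85-fold higher with no overlap (log2 difference 0.88). The middle control labelled MB had 963 and 216 after rosiglitazone, against 206 and 173 after vehicle. It was higher by 1.27 on the log2 scale, and nearly all of that gap was on rosiglitazone replicate 1. Every other array lay under 414 on MB, the mean intensity needed to enter the fit.

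The other pair of controls did not follow. The middle control labelled MA had 187 and 347 after rosiglitazone, against 328 and 434 after vehicle, a log2 difference of -0.57 with overlapping groups. The 5′ control had 350 and 1023 after rosiglitazone, against 454 and 1104 after vehicle, a log2 difference of -0.24 with overlapping groups. Rosiglitazone replicate 1 was thus the brightest array of the 4 on both Pcx probe sets and on the 3′ and MB controls, and the dimmest on the 5′ and MA controls.

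The 3′ to 5′ ratio of the Pcx controls was 37.2 and 6.34 after rosiglitazone, against 11.5 and 4.31 after vehicle. Rosiglitazone replicate 1 stood apart on this ratio. For actin the ratio was 7.74 and 9.62 after rosiglitazone, against 8.88 and 11.9 after vehicle, and for Gapdh 8.79 and 10.8 after rosiglitazone, against 11.1 and 11.1 after vehicle. On both of these transcripts rosiglitazone replicate 1 had the lowest ratio of the 4 arrays. The part of RNA quality, of other transcripts matched by these probes and of Pcx isoforms in the Pcx values was not tested.

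**Figure D3:**
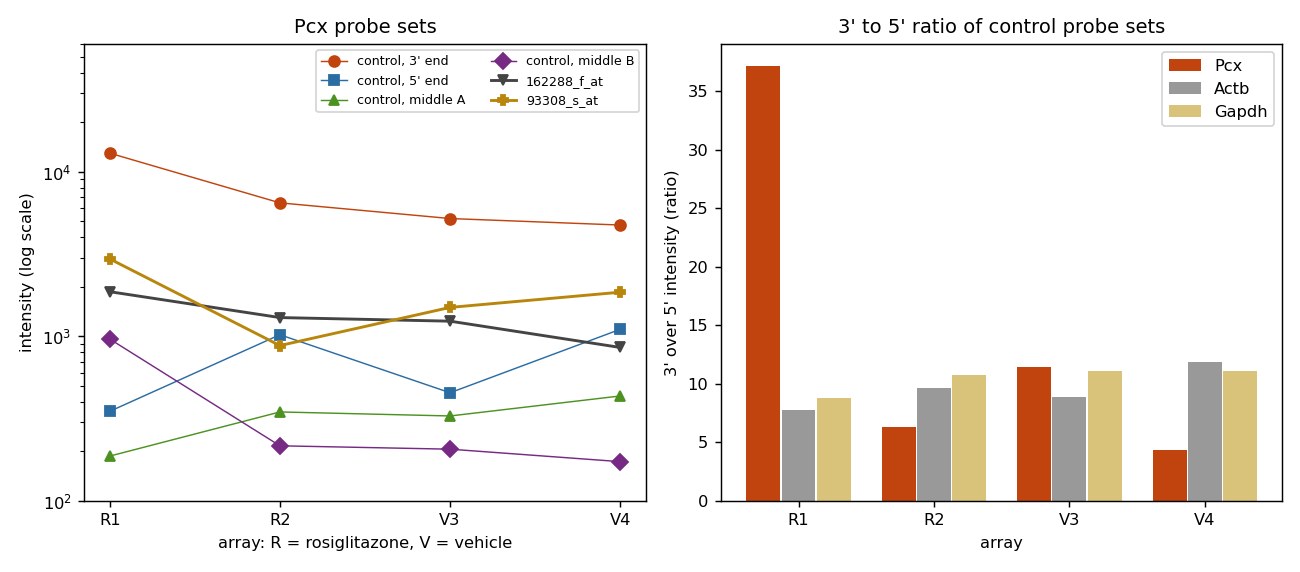
Left, intensity (log axis) of the 2 Pcx probe sets and the 4 pyruvate carboxylase controls on rosiglitazone arrays R1 and R2 and vehicle arrays V3 and V4, with lines joining the values of 1 probe set only to guide the eye. Right, ratio of 3′ to 5′ control intensity (bars from 0) for Pcx, Actb (actin) and Gapdh, where R1 has the highest Pcx ratio (37.2) and the lowest actin and Gapdh ratios (7.74 and 8.79).

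Mouse Pcx has alternative starts, and RefSeq lists a pair of them far apart on chromosome 19. The window before the upstream start, chr19:4510222-4510471 on the plus strand, is shown because it held CCAAT 3 times (in capitals, on either strand), as at least 3 copies were held by 2.79% of all windows. The window at the downstream start held none of the motifs searched, and neither held AGGTCA.
Pcx, upstream start: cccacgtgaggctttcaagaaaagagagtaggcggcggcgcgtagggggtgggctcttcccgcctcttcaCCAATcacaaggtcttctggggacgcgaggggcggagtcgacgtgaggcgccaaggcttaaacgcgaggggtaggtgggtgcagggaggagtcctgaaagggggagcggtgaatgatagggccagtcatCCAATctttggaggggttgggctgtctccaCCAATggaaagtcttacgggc

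Profiles over the 4 arrays most like that of Pcx on 93308_s_at, its brighter probe set, were those of Coq4, Auh, Spib, Egfr and Robo3. Likeness was the root mean square difference of log2 intensities, each centred on its mean over the 4 arrays. It was 0.041 for Coq4, 0.084 for Auh and 0.110 for Robo3, the last of the 5. Coq4 had 910 and 259 after rosiglitazone, against 455 and 592 after vehicle, the same order of arrays as Pcx. The other Pcx probe set differed from 93308_s_at by 0.62 on this measure, and 29.5% of all other probe sets fitted lay nearer. With 4 arrays such likeness has little weight.

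The subunits of the cycle that were not among the 9 genes were for the most part higher as well. Of 10 listed, 8 were bright enough to enter the fit, 7 of them above 0 (48.1% of all probe sets fitted were), and their median log2 fold change was 0.48. Of the 8, 5 were higher and 1, Sdha, was lower without overlap (19% and 21.8% of all probe sets fitted). None of them (0) passed in limma. Sdhb, the iron-sulphur subunit of succinate dehydrogenase, had 69889 and 62533 after rosiglitazone, against 46404 and 44116 after vehicle (log2 fold change 0.55, limma adjusted p = 0.356). Sucla2, the beta subunit that pairs with Suclg1 in the ADP-forming enzyme, had 64197 and 76785 after rosiglitazone, against 47634 and 48849 after vehicle (0.54, limma adjusted p = 0.374), close to the value of Suclg1 itself. A dimmer probe set of Sucla2 had -0.20 with overlapping groups.

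Dlst and Dld, the partners of Ogdh in its complex, differed by less than Ogdh on the probe sets read. Dlst, the succinyltransferase core, had a log2 fold change of 0.49 (limma adjusted p = 0.448) and 0.72 on its second probe set. Dld, the dihydrolipoamide dehydrogenase that several complexes share, had 0.47 (limma adjusted p = 0.536). Whether Ogdh differed more than its partners was not tested. Sdha, the flavoprotein subunit of succinate dehydrogenase, ran the other way, with 3940 and 4774 after rosiglitazone, against 5362 and 5414 after vehicle (log2 fold change -0.31, without overlap).

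Genes around the cycle were more mixed. Over the 30 pathway genes fitted outside the 9, 21 lay above 0, and the median log2 fold change was 0.20. Of the 30, 13 were higher and 4 lower without overlap, beside 19% higher and 21.8% lower among all probe sets fitted. None (0) passed in limma, and 7 had an unadjusted p under 0.05, as did 10.9% of all probe sets fitted. Genes around the entry of pyruvate, kinases that block it and lactate dehydrogenase subunits included, had a median of 0.19 over 7 fitted. Among them Ldhb, the lactate dehydrogenase subunit suited to turning lactate into pyruvate, had 16853 and 21221 after rosiglitazone, against 9843 and 14515 after vehicle (0.66, limma adjusted p = 0.368). Dlat, the acetyltransferase core of pyruvate dehydrogenase, had 0.47 without overlap on its brighter probe set and -0.17 with overlapping groups on a dimmer one. A pair of kinases that switch that complex off differed in sign, with Pdk1 at -0.53 without overlap and Pdk4 at 0.21 with overlap.

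Genes that draw on or refill cycle intermediates had a median of 0.10 over 11 fitted. Pck1, the phosphoenolpyruvate carboxykinase that uses oxaloacetate and serves glycerol synthesis in fat, had 17647 and 16350 after rosiglitazone, against 12321 and 9407 after vehicle (0.66), and its limma adjusted p of 0.295 was the lowest of the 30. Mmut, the mutase that yields succinyl-CoA, had 0.42 without overlap. Me1, the cytosolic malic enzyme, had 9182 and 10917 after rosiglitazone, against 14091 and 12594 after vehicle (-0.41), and Acly, which splits exported citrate, had -0.21 with overlapping groups. The NADP-linked isocitrate dehydrogenases differed in sign. Idh2, the mitochondrial form, had 15922 and 20703 after rosiglitazone, against 12042 and 11707 after vehicle (0.61, limma adjusted p = 0.329), and Idh1, the cytosolic form, had 2427 and 1990 after rosiglitazone, against 2721 and 3863 after vehicle (-0.56, limma adjusted p = 0.547). Of the biotin enzymes, 2 were fitted. Btd, which recycles biotin, had 2076 and 1166 after rosiglitazone, against 806 and 240 after vehicle, a log2 fold change of 1.82 (standard error 0.64, limma adjusted p = 0.338). Vehicle replicate 4 was far below the other arrays, and with it left out the Btd value was 0.95. Mccc1, a carboxylase of leucine breakdown, was at 0.03.

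Marker genes of the cells that the sample could hold also differed on these arrays. Of 8 brown adipocyte markers listed, 6 entered the fit (Elovl3 and Ppargc1a were too dim), and 4 of these were higher and 1 was lower without overlap (19% and 21.8% of all probe sets fitted). Their median was 0.39, and their summed intensity was 395388 and 427299 after rosiglitazone, against 286040 and 280814 after vehicle, most of it from Cidea on every array. Cidea, a lipid droplet protein, had 240828 and 286124 after rosiglitazone, against 188712 and 199365 after vehicle (0.44), and Ucp1, the uncoupling protein that defines brown fat, had 97796 and 73418 after rosiglitazone, against 54981 and 33472 after vehicle (0.98). Fabp3, a fatty acid binding protein, had 13425 and 14910 after rosiglitazone, against 5401 and 4350 after vehicle (1.55). The member lower without overlap was Dio2, the deiodinase that activates thyroid hormone, at -0.33. White adipocyte markers, 5 of 7 fitted, had a median of -0.14 but a higher sum, 204600 and 226834 after rosiglitazone, against 149434 and 159555 after vehicle, most of it from the adipokine Adipoq (0.46). Of the 5, 2 were higher and 1 was lower without overlap (19% and 21.8% of all probe sets fitted). The higher ones were Adipoq and Lipe, the hormone-sensitive lipase (1.10). The lower one was Retn, the adipokine resistin, with 2422 and 350 after rosiglitazone, against 2681 and 2552 after vehicle (-1.51). Retn was at -0.11 without rosiglitazone replicate 2. Fabp4, an adipocyte fatty acid binding protein, and Lep, leptin, overlapped at -0.19 and -0.14.

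Smooth muscle markers, which define the aortic wall, were lower without overlap on all 6 of 7 listed that were fitted (21.8% of all probe sets fitted were), with a median of -1.30. Their summed intensity was 51638 and 53896 after rosiglitazone, against 108390 and 131196 after vehicle, most of it from Acta2. Acta2, smooth muscle actin, had -1.12 and Tagln, transgelin, had -1.26. Macrophage markers were also lower without overlap on all 5 (21.8% of all probe sets fitted were), with a median of -0.86 and a sum of 10918 and 8468 after rosiglitazone, against 36781 and 38571 after vehicle. Cd14, the lipopolysaccharide co-receptor, gave most of the vehicle sum and was at -2.93. Lyz2, lysozyme, had -0.76. Of all the markers, Fabp3, Tagln and Cd14 passed in limma over the 4 arrays (adjusted p = 0.0240, 0.0455 and 0.000145). With either vehicle array left out none of these 3 passed, with adjusted p from 0.0619 to 0.672, while their log2 fold changes ran from 1.39 to 1.70 for Fabp3, from -1.28 to -1.25 for Tagln and from -2.95 to -2.91 for Cd14.

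Heart muscle markers, 7 of 8 fitted, had a median of -0.12 and a sum of 29361 and 33761 after rosiglitazone, against 33869 and 36766 after vehicle, and 2 were higher and 1 lower without overlap (19% and 21.8% of all probe sets fitted). The cardiac troponins Tnnt2 and Tnni3 were at 0.79 (higher without overlap) and 0.06 (overlapping), and the myosin heavy chain Myh7 was higher without overlap at 0.29. The atrial light chain Myl7 was lower without overlap at -0.23, and cardiac actin Actc1 was at -0.53 with overlapping groups. Skeletal muscle markers, 4 of 8 fitted, had a median of 0.01 and a sum of 3954 and 3634 after rosiglitazone, against 4434 and 3100 after vehicle, and 1 was higher and 1 lower without overlap (again 19% and 21.8% of all probe sets fitted). Myh4, a fast myosin heavy chain, had 674 and 1153 after rosiglitazone, against 543 and 358 after vehicle, higher by 1.0 on the log2 scale (standard error 0.60), while the light chain Mylpf was at 0.01 and the fast troponin Tnnc2 at -0.53. Endothelial markers, all 5 fitted, had a median of -0.37 and a sum of 4875 and 6120 after rosiglitazone, against 6837 and 7614 after vehicle. Without overlap 0 were higher and 3 lower (19% and 21.8% of all probe sets fitted). Tie1 was at -0.83 and Cdh5 at -0.37, both without overlap, while Pecam1 and Kdr overlapped at 0.14 and -0.28. In pooled tissue, more cells of a type and more RNA per cell cannot be told apart, and the part of these shifts in the values of the cycle genes was not tested.

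**Figure D4:**
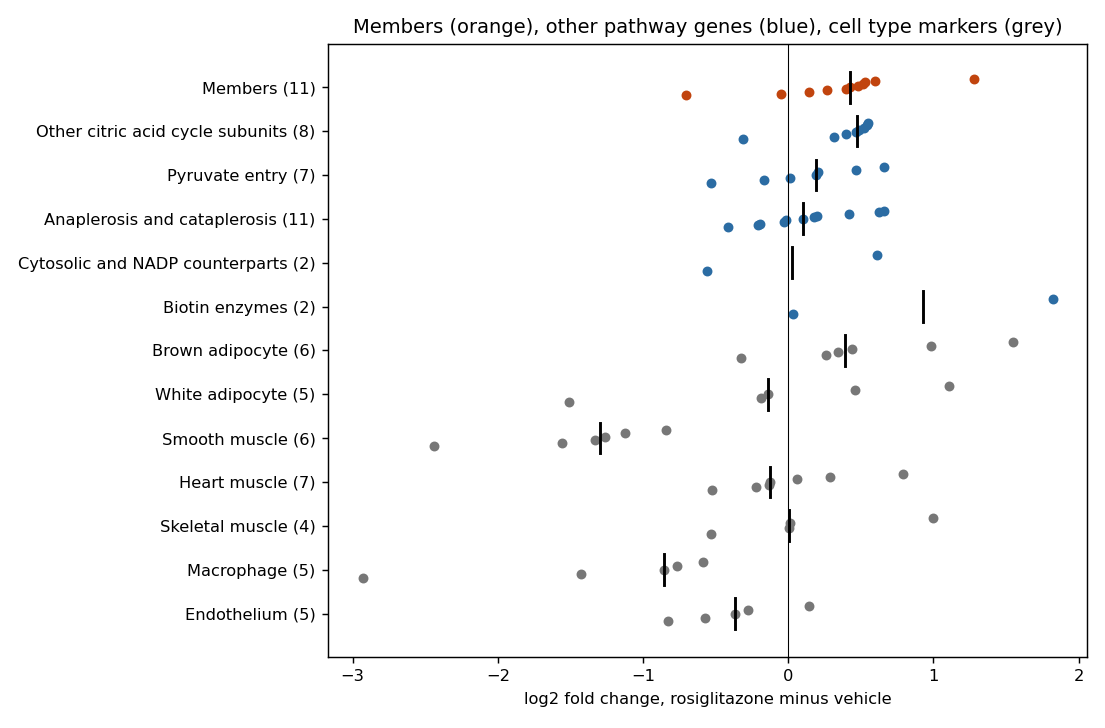
Log2 fold change (rosiglitazone minus vehicle) of the 11 fitted probe sets of the 9 genes (orange), of the other pathway genes on their brightest probe set (blue) and of cell type markers (grey), with a black line at each median and the number of points in brackets. The 9 genes and the other cycle subunits centre on 0.42 and 0.48, brown adipocyte markers on 0.39 and smooth muscle markers on -1.30.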

How the data were processed

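The deposited values are linear hybridisation intensities, 1 whole number per probe set and array. Their summarisation and background correction were not given in the sources used here. Mean intensity with 2% of values trimmed at each end was 1501 on every array, and array medians differed by at most 0.13 on the log2 scale, so no further scaling was applied. Of 12488 probe sets, 66 controls were left out, and symbols were taken from the platform's probe table and updated by gene identifier (0 symbols changed). Intensities under 148, the 20th percentile, were set to 148. Probe sets whose mean log2 intensity reached that of 414, the 40th percentile, were kept (7134). Rosiglitazone was set against vehicle with limma 3.58.1 (R 4.3.3), whose eBayes step used an intensity trend. Its two-sided p-values were Benjamini-Hochberg adjusted across the 7134. The procedure was tested on simulated data whose planted differences were all larger than that of Ogdh. That test does not cover the recovery of differences of the size found for the cycle genes. A permutation of the arrays could give no p below 0.333. Sequences are RefSeq's.

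The 9 genes, the pathway and marker lists and the naming rule were chosen with earlier results of these data known. The rule names all 9 genes, the 4 genes of each pathway list with the smallest unadjusted p, the 2 brightest of each marker list and the 5 profiles nearest to Pcx. Sdha and the markers Fabp3, Dio2, Retn, Fabp4, Lep, Tnnt2, Tnni3, Myh7, Myh4, Pecam1 and Kdr were named outside it, after their values were seen. A gene with several probe sets is given on its brightest unless stated. Alternatives were other floors, no filter, median centring, quantile normalization, no intensity trend, the mean over a gene's probe sets, and leaving out each array.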

Additional observations from a re-analysis of the deposited data

Results flagged for a closer look

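A pair of control probe sets for pyruvate carboxylase, which lie outside the fit, had more signal on both rosiglitazone arrays than on both vehicle arrays. The 3′ control was higher by 0.88 on the log2 scale, and the middle control labelled MB was higher by 1.27, with 963 and 216 on the rosiglitazone arrays against 206 and 173 on the vehicle arrays. MB was under 414, the mean intensity needed to enter the fit, on every array but rosiglitazone replicate 1. The MA and 5′ controls had overlapping groups, with log2 differences of -0.57 and -0.24. Of all probe sets fitted, 19% were higher without overlap. No test was run on these controls.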

How the results depend on the processing

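The median log2 fold change of the probe sets fitted for the 9 genes (11, or 12 with the floor at the 40th percentile or with no filter) stayed above 0 under all 10 alternatives, between 0.31 and 0.51. Other floors, no filter and no intensity trend left the log2 fold changes of the 11 as they were. Median centring and quantile normalization changed all 11. With median centring Idh3a went from 0.14 to 0.23. With quantile normalization Suclg1 went from 0.52 to 0.38, Fh1 from 0.48 to 0.36, Mdh2 from 0.53 to 0.34 and Idh3g on 93029_at from 0.27 to 0.15. That setting raised Mdh1 from 0.40 to 0.46 and Pcx on 162288_f_at from 0.60 to 0.66. The sign changed only for Pcx on 93308_s_at. That value was 0.034 with each array centred on its median, 0.0043 with quantile normalization, and from -0.92 to 0.83 with 1 array left out. The number of these 9 genes' probe sets past the threshold was 0 with other floors, no filter, median centring, quantile normalization and no intensity trend. It was not always 0 with 1 array left out, where a group holds a lone array, and nothing is read from that. Pathway genes past the threshold stayed at 0 under every alternative. Over all probe sets, 26 passed, against 17 with median centring, 7 with no intensity trend, 0 with the floor at the 40th percentile and 0 with no filter (933 and 1202 of 12422 at an unadjusted p under 0.05 in limma), and 1 to 78 with 1 array left out. A fit that leaves out 1 array assumes that the lone array of its group varies like the others. No paired analysis was possible because the groups share no replicate number. The causes of these changes were not tested. No detection calls were used, so signal over background could not be judged.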
